A study of Mus musculus with 22 samples.

Results

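The tumour suppressor p53 (Trp53) and 9 genes that it is known to activate after DNA damage were followed through LT-HSC, CMP, GMP, and MEP cells of Arid1a KO and WT mice. The 10 genes were taken as a named list (Trp53, Mdm2, Ccng1, Phlda3, Eda2r, Bbc3, Bax, Trp53inp1, Zmat3, and Sesn2) out of 47311 genes quantified, and all 10 passed the filter on low counts in every population. Each value is the sum over the transcripts of a gene. RNA was sequenced from bone marrow cells sorted by FACS, in 22 libraries. WT mice were Arid1a f/f;Mx1-Cre- and KO mice their Arid1a f/f;Mx1-Cre+ littermates on a C57BL/6 background, and both carried the floxed exon 9 of Arid1a. Mx1-Cre is an interferon-inducible transgene, and mice of both genotypes received 5 doses of 300 µg poly(I:C) at 8 to 14 weeks of age, with cells sorted 4 weeks later. LT-HSCs (CD34-Flt3- LSK cells, the long-term hematopoietic stem cells) came from 2 WT and 2 KO mice, 1 library each, and their values are always given in the same order of mice. The common myeloid (CMP), granulocyte monocyte (GMP), and megakaryocyte erythrocyte (MEP) precursors came from WT mice 300, 305, and 309 and KO mice 301, 304, and 308, each of which gave all 3 populations. The comparison of KO with WT asks for a sign of a p53 response after loss of ARID1A, a subunit of the SWI/SNF chromatin remodeling complex.

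p53 is held at a low protein level by the ubiquitin ligase Mdm2, whose gene p53 itself switches on, and it is stabilized when damaged DNA activates the kinases Atm and Atr. Its activity is therefore set mainly on the protein, and a p53 response is read from its target genes rather than from Trp53 RNA. The targets arrest the cell cycle (Cdkn1a), feed back on p53 and Akt signaling (Mdm2, Ccng1, Phlda3), signal from the cell surface (Eda2r), open the mitochondrial route to apoptosis (Bbc3, Bax), promote autophagy (Trp53inp1), bind RNA (Zmat3), or restrain mTORC1 (Sesn2). In blood-forming cells p53 is known for restraining the expansion of stem cells and for removing precursors that carry damage.

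Promoter sequences were read from RefSeq (GRCm38.p6), which gave 10 windows of 300 bases, from 250 bases before to 50 after a start site, for 8 of the 10 genes. Trp53inp1 and Zmat3 were not in that table. The windows were searched for the p53 decamer, the 10-base unit of p53 response elements. The decamer reads alike on either strand, so both strands were covered. A decamer was found in the windows of 4 genes, Trp53, Mdm2, Ccng1, and Bax, against 8.36% of the 32851 windows of all genes. Ccng1 also held a run of 20 bases, 2 decamers set end to end, with 1 mismatch to the motif. A match of 20 bases with at most 1 mismatch was found in 0.0883% of all windows. The sequences below run from 250 to 51 bases before the start, 5′ to 3′ on the strand of the gene, with the decamer or the 20-base match in capitals. Ccng1 is shown for its match and Mdm2 for a decamer in a gene that was called in no population. Phlda3 is shown as a gene that rose in CMP and MEP and held no decamer in this window.
Ccng1 (chr11:40755337-40755536, minus strand): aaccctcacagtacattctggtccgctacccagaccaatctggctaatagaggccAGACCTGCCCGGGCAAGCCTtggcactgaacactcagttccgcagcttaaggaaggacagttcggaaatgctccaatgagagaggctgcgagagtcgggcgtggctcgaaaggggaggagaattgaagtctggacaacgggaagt
Mdm2 (chr10:117710809-117711008, minus strand): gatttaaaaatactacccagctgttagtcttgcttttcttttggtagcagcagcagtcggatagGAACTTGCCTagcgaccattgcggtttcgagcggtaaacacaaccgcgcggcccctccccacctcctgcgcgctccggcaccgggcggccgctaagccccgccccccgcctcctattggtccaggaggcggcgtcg
Phlda3 (chr1:135765835-135766034, plus strand): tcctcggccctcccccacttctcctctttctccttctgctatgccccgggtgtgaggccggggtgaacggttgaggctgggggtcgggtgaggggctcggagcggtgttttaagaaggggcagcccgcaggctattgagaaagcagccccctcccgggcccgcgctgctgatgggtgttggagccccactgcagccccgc
The match of Ccng1 began 195 bases before the start site and the decamer of Mdm2 186 bases before it. A match describes letters in a window, and binding was not measured here.

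The 22 libraries held between 40804031 and 65930737 estimated counts on genes. Arid1a, whose transcripts outside the deleted exon are still counted, was lower in KO LT-HSCs (10.9 and 10.7 TPM, transcript abundance scaled to one total in every library) than in WT LT-HSCs (29.9 and 23.7 TPM), with a log2 fold change of -1.14 ± 0.27 (SE) that did not pass the test (adjusted p = 0.421). In the precursors the CMP value was -0.22, the GMP value -0.40, and the MEP value -0.14 (adjusted p = 0.0284, 0.0246, and 0.0836). Stem cell markers summed to between 701.1 and 1273 TPM in LT-HSC libraries and to at most 129.8 TPM elsewhere. Neutrophil markers were highest in GMP (30278 to 46706 TPM) and erythroid markers stood at 5504 to 7247 TPM in MEP and at 4386 to 5569 TPM in the LT-HSC libraries, which overlapped. Xist stood at 155 to 203.5 TPM in the 3 libraries of WT mouse 305 and at no more than 0.239 TPM in the other precursor libraries. Ddx3y, a gene of the Y chromosome, was at most 0.404 TPM in the libraries of mice 305 and 304 and at least 23.8 TPM in the other 4 mice. Calls used an FDR of 0.1 in edgeR's quasi-likelihood test, adjusted by Benjamini-Hochberg over all genes tested in a population. In bulk populations, fewer cells of a type and less RNA per cell cannot be told apart.

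**Figure D1:**
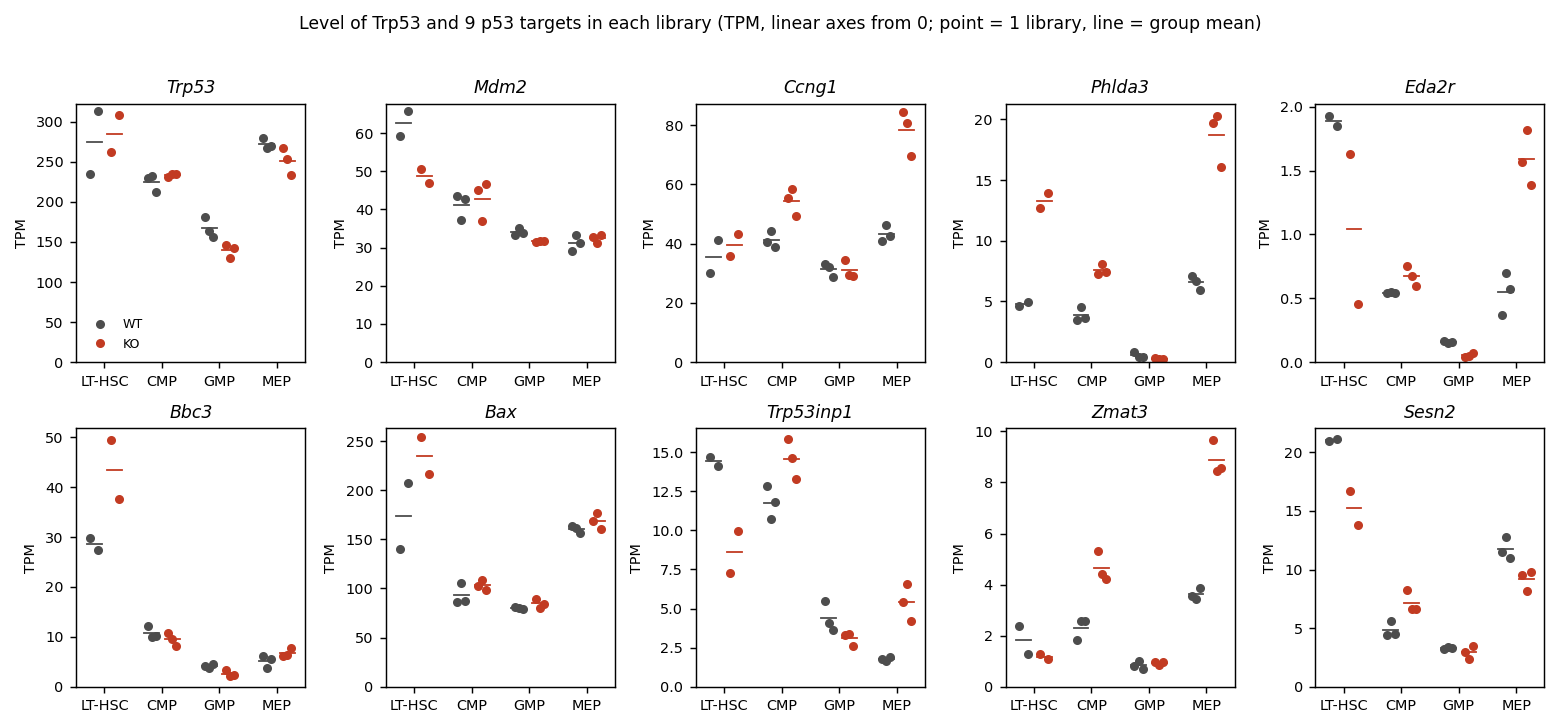
Level of each of the 10 genes (TPM, linear axis from 0) in the 22 libraries, by population, with WT in grey and KO in red; points are libraries and lines group means. In MEP the KO points of Ccng1, Phlda3, Eda2r, Trp53inp1, and Zmat3 lie above every WT point, while Mdm2 overlaps.

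In WT precursors the level of p53 targets depended on the population before any loss of ARID1A. Trp53 (chr11:69580359-69591873, plus strand, GRCm38 as for all genes here) was abundant, at 272.7 ± 6.76 TPM (SD, n = 3) in MEP, 225.1 ± 10.6 TPM in CMP, and 167.0 ± 12.5 TPM in GMP, and at 235.6 and 313.7 TPM in the 2 WT LT-HSC libraries. Bax (chr7:45461697-45466898, minus strand) followed at 160.4 ± 3.54 TPM in MEP, 93.0 ± 10.8 TPM in CMP, and 79.8 ± 0.958 TPM in GMP. Eda2r (chrX:97333840-97377216, minus strand) was the lowest of the 10, with 0.546 ± 0.167 TPM in MEP, 0.542 ± 0.00428 TPM in CMP, and 0.156 ± 0.00684 TPM in GMP. Between WT populations, 8 of the 10 genes were lower in GMP than in CMP (45.2% of all genes differed), and Mdm2 and Bax did not pass. Phlda3 differed the most, with a log2 difference of -2.52 ± 0.21 (adjusted p = 4.06e-07). Between WT MEP and WT CMP 9 genes differed (70.6% of all genes), 6 of them higher in MEP. Sesn2 was higher in MEP by 1.60 ± 0.10, Bax by 1.12 ± 0.07, Zmat3 by 1.07 ± 0.09, and Phlda3 by 1.04 ± 0.17 on the log2 scale. Trp53inp1 went the other way, at 1.78 ± 0.138 TPM in MEP and 11.8 ± 1.05 TPM in CMP, a log2 difference of -2.46 ± 0.12. Between WT MEP and WT GMP 9 genes differed as well (70.7% of all genes), 8 of them higher in MEP. In each of these pairs the share of the 10 genes was set beside a background in which many genes differed.

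In MEP cells, 5 of the 10 genes rose in Arid1a KO mice and 2 fell, while 29.4% of all 15777 genes tested were called, 14% higher and 15.4% lower. Eda2r, Trp53inp1, Phlda3, Zmat3, and Ccng1 rose by 1.77-fold to 3.27-fold. Mdm2, the feedback target by which p53 limits itself, Bbc3, and Bax were not called. The median log2 fold change of the 10 genes was 0.56, beside a median of 0.00 over all genes tested.

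Ccng1 (chr11:40748552-40755311, minus strand), encoding cyclin G1, which recruits a phosphatase to Mdm2, stood at 40.9, 46.4, and 42.5 TPM in WT MEPs and 84.5, 80.9, and 69.6 TPM in KO MEPs. The KO libraries all lay above the WT libraries, and the log2 fold change was 0.82 ± 0.07 (SE, n = 3 and 3, adjusted p = 1.47e-04). Phlda3 (chr1:135766119-135769136, plus strand), a small lipid-binding protein that competes with Akt at the membrane, stood at 7.13, 6.68, and 5.93 TPM in WT and 19.7, 20.3, and 16.1 TPM in KO. Its log2 fold change of 1.56 ± 0.15 (adjusted p = 3.22e-04) is 2.94-fold. Zmat3 (chr3:32334792-32366014, minus strand), a zinc finger protein that binds RNA, stood at 3.56, 3.42, and 3.86 TPM in WT and 9.67, 8.44, and 8.57 TPM in KO, without overlap (1.28 ± 0.07, adjusted p = 2.20e-05). Trp53inp1 (chr4:11156431-11174379, plus strand), a nuclear and autophagy protein that p53 induces, stood at 1.80, 1.63, and 1.91 TPM in WT and 5.41, 6.57, and 4.19 TPM in KO. It rose 3.11-fold (1.64 ± 0.14, adjusted p = 1.70e-04), up to a level still below that of WT CMPs. Eda2r, a death-domain-free receptor of the TNF receptor family on the X chromosome, stood at 0.369, 0.7, and 0.570 TPM in WT and 1.57, 1.82, and 1.39 TPM in KO. The counts behind it were low, 53 to 68 per WT library and 205 to 234 per KO library, and the log2 fold change was 1.71 ± 0.23 (adjusted p = 0.00132). Mice 305 and 304 stood apart by their low Ddx3y, and of these only 305 had high Xist. With both left out, the log2 fold change of Eda2r was 1.67 (adjusted p = 0.00568).

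Trp53 itself stood at 280.5, 268.0, and 269.7 TPM in WT MEPs and 267.4, 253.6, and 233.5 TPM in KO MEPs. The decrease was small (log2 fold change -0.14 ± 0.05, adjusted p = 0.0588), and 7 of 14 alternative settings left it short of the threshold. Mdm2 (chr10:117688875-117710758, minus strand) stood at 29.0, 33.4, and 31.2 TPM in WT and 32.9, 31.3, and 33.4 TPM in KO, which overlapped (0.00 ± 0.06, adjusted p = 0.973). Bax, the pore-forming effector of apoptosis, was at 156.4 to 163.1 TPM in WT and 161.0 to 177.0 TPM in KO (0.05 ± 0.04, adjusted p = 0.456). Bbc3 (chr7:16308393-16318205, plus strand), which encodes the BH3-only protein PUMA, was at 3.73 to 6.08 TPM in WT and 6.20 to 7.86 TPM in KO (0.30 ± 0.16, adjusted p = 0.238). Sesn2 (chr4:132492032-132510501, minus strand), a sestrin that senses leucine and restrains mTORC1, fell from 11.5, 12.8, and 11 TPM in WT to 9.57, 8.17, and 9.81 TPM in KO (-0.38 ± 0.10, adjusted p = 0.0301). Cdkn1a (p21), the p53 target that arrests the cell cycle, stood at 0.863, 1.46, and 1.35 TPM in WT and 11.2, 11.3, and 9.63 TPM in KO (3.13 ± 0.17, adjusted p = 2.51e-05). In the same libraries 3 of 9 megakaryocyte markers tested rose, and their sum over 10 genes went from 26.6 to 49.9 TPM in WT to 74.0 to 100.3 TPM in KO. Of 15 erythroid markers 10 rose and 1 fell, with sums of 6249 to 7247 TPM in WT and 5504 to 5803 TPM in KO. The mean sum went from 6909 to 5700 TPM. Car1, the 1 that fell, went from a mean of 4499 to 2172 TPM, so the lower sum rests on this gene. Of 9 stem cell markers tested 3 rose, with sums of 71.2 to 74.3 TPM in WT and 118.3 to 129.8 TPM in KO. These marker counts stand beside 29.4% of all genes tested in MEP that were called, 14% higher and 15.4% lower. No marker of these 3 lists was at 0 in all libraries of a genotype, and the part of the markers in the result was not tested.

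**Figure D2:**
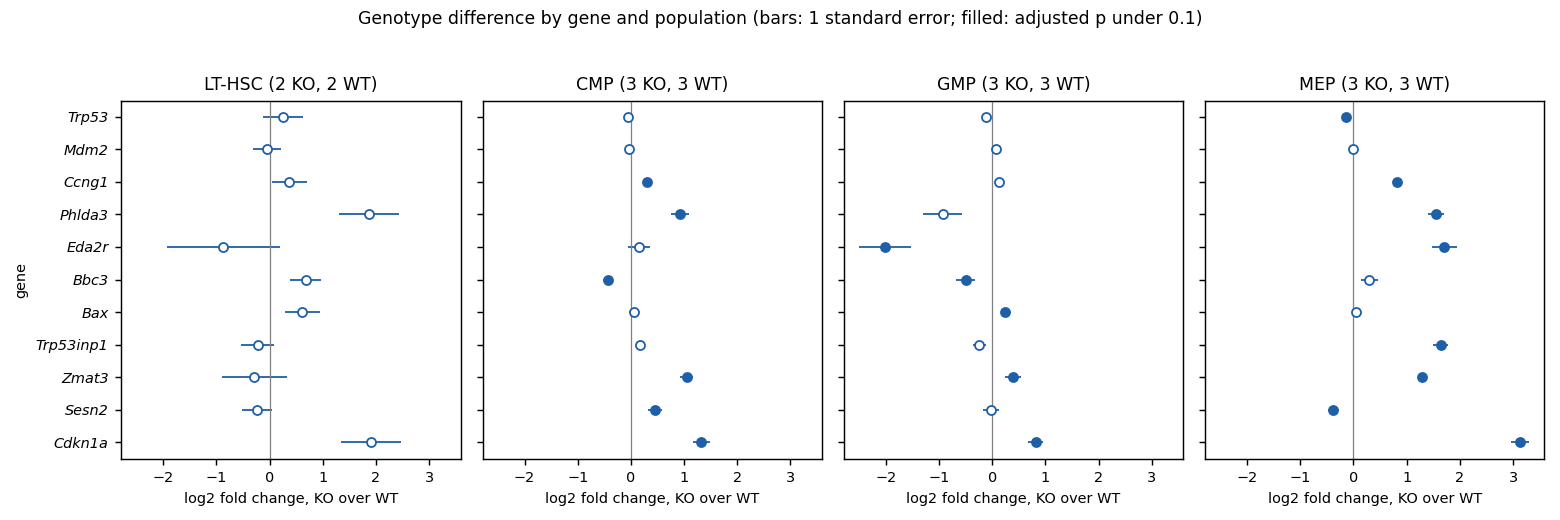
Log2 fold change of KO over WT for the 10 genes and Cdkn1a in each population, with bars of 1 standard error and filled points for an adjusted p under 0.1. Eda2r lies at 1.71 in MEP and at -2.01 in GMP, and Mdm2 lies near 0 in every panel.

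In CMP cells, 4 genes rose (Zmat3, Phlda3, Sesn2, and Ccng1) and 1 fell (Bbc3), while 23.4% of 17214 genes were called, 10.6% higher and 12.8% lower. The median log2 fold change was 0.16 for the 10 genes and -0.00 for all genes tested. Zmat3 stood at 1.84, 2.56, and 2.56 TPM in WT and 5.30, 4.41, and 4.22 TPM in KO (1.05 ± 0.12, adjusted p = 6.14e-04). Phlda3 stood at 3.46, 4.53, and 3.62 TPM in WT and 7.24, 8.10, and 7.46 TPM in KO (0.92 ± 0.17, adjusted p = 0.00593). Neither gene overlapped between the genotypes. Ccng1 rose by less, from 40.4, 44.2, and 38.9 TPM to 55.5, 58.5, and 49.4 TPM (0.30 ± 0.07, adjusted p = 0.0221). Sesn2 stood at 4.45, 5.6, and 4.52 TPM in WT and 8.25, 6.59, and 6.61 TPM in KO (0.45 ± 0.13, adjusted p = 0.0419). The Sesn2 call was lost without WT mouse 300 (adjusted p = 0.139), without WT mouse 309 (0.137), or without KO mouse 301 (0.169).

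Bbc3 was lower in KO CMPs by count (-0.43 ± 0.10, adjusted p = 0.0181), yet its TPM overlapped, at 12.1, 9.92, and 10.1 in WT and 10.8, 9.60, and 8.12 in KO. Under an offset for transcript length the log2 fold change was -0.27 (adjusted p = 0.262), and in limma on log2(TPM + 1) it was -0.16 (adjusted p = 0.466). Trp53inp1 was at 10.7 to 12.8 TPM in WT and 13.3 to 15.8 TPM in KO (0.18 ± 0.09, adjusted p = 0.259), and passed with a block for neighbouring columns of the study's table (0.19, adjusted p = 0.0919). Trp53 (-0.05 ± 0.05), Mdm2 (-0.03 ± 0.06), Bax (0.06 ± 0.09), and Eda2r (0.15 ± 0.21) were not called. Cdkn1a stood at 10.5 to 11.9 TPM in WT and 23.8 to 35.9 TPM in KO (1.32 ± 0.16, adjusted p = 6.99e-04). Of the 15 erythroid markers 14 rose in the same libraries, and their sum went from 1188 to 1337 TPM in WT to 2381 to 2683 TPM in KO. Neutrophil markers mostly went the other way (7 of 13 fell and Fcnb rose, with sums of 4216 to 4900 TPM in WT and 1754 to 2690 TPM in KO). Of 10 megakaryocyte markers 8 fell and Gp9 rose (796.9 to 1171 TPM in WT and 621.1 to 643.8 TPM in KO). Over all genes tested in CMP, 10.6% were called higher and 12.8% lower. No marker of these lists was at 0 in all libraries of a genotype. Zmat3, Phlda3, Sesn2, and Ccng1, the 4 that rose, were each also higher in WT MEPs than in WT CMPs, where 70.6% of all genes differed. Trp53 (0.59 ± 0.05) and Bax (1.12 ± 0.07) were higher in WT MEPs too and were not called in KO CMPs. Cdkn1a was lower in WT MEPs (-2.93 ± 0.16) and rose in KO CMPs. The part of the shifted markers in these changes was not tested.

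In GMP cells, Bax and Zmat3 rose and Eda2r and Bbc3 fell, while 33.9% of 16383 genes were called, 17.5% higher and 16.3% lower. The median log2 fold change was -0.07 for the 10 genes and -0.01 for all genes tested. Eda2r stood at 0.163, 0.149, and 0.157 TPM in WT and 0.0418, 0.0440, and 0.0675 TPM in KO, without overlap (-2.01 ± 0.49, adjusted p = 0.0150). It rested on 12 to 21 counts per WT library and 2 to 5 per KO library, and was called under all 14 alternative settings. Without mice 305 and 304 it was -2.01 (adjusted p = 0.0645). Phlda3 was also low, at 0.846, 0.443, and 0.448 TPM in WT and 0.322, 0.252, and 0.286 TPM in KO. Its log2 fold change of -0.93 ± 0.37 missed the threshold (adjusted p = 0.101) and passed it under 5 of 14 settings, the block for neighbouring columns among them (adjusted p = 0.094).

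Bbc3 stood at 4.06, 3.83, and 4.48 TPM in WT GMPs and 3.32, 2.19, and 2.33 TPM in KO GMPs (-0.50 ± 0.18, adjusted p = 0.0763), a call lost with no filter on low counts (adjusted p = 0.111) and without WT mouse 300, WT mouse 309, KO mouse 304, or KO mouse 308 (adjusted p = 0.148, 0.194, 0.134, and 0.219). Bax rose by count (0.24 ± 0.06, adjusted p = 0.0133), but its TPM overlapped at 78.8 to 80.8 in WT and 80.4 to 89.2 in KO, and on the log2(TPM + 1) scale the call was lost (0.08, adjusted p = 0.369). Zmat3 was at 0.702 to 0.996 TPM in WT and 0.854 to 0.988 TPM in KO (0.40 ± 0.15, adjusted p = 0.0912), and 8 of 14 settings lost its call, with values from 0.08 to 0.54. Of the 6 genes not called, Ccng1 passed with the block for neighbouring columns (0.13, adjusted p = 0.0520). On log2(TPM + 1) 4 of the 10 genes were called in GMP, none of them higher, in place of 2 higher and 2 lower by count. Trp53 was at 156.8 to 180.9 TPM in WT and 129.8 to 146.7 TPM in KO (-0.11 ± 0.06, adjusted p = 0.224), and passed on log2(TPM + 1) (-0.26, adjusted p = 0.051). Trp53inp1 (-0.24 ± 0.12, adjusted p = 0.207) passed without WT mouse 305 (-0.34, adjusted p = 0.0871) and without mice 305 and 304 (-0.38, adjusted p = 0.0582). Mdm2 (0.07 ± 0.06) and Sesn2 (-0.02 ± 0.15) did not pass. Cdkn1a rose from 7.32 to 8.68 TPM in WT to 10.3 to 14.5 TPM in KO (0.82 ± 0.14, adjusted p = 0.00213). Neutrophil markers rose in 10 of 13 genes and fell in 1, with sums of 30278 to 35697 TPM in WT and 40380 to 46706 TPM in KO. Basophil and mast cell markers fell in 7 of 9 genes tested (1005 to 1484 TPM in WT and 318.2 to 382.1 TPM in KO), and stem cell markers in 7 of 10, with 1 higher (18.4 to 24.5 and 13.5 to 14.4 TPM). Over all genes tested in GMP, 17.5% were called higher and 16.3% lower. None of these markers was at 0 throughout a genotype, and their part in the result was not tested.

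In LT-HSCs none of the 10 genes was called by edgeR's quasi-likelihood test, in which 0.0792% of 22733 genes passed, 0.0264% higher and 0.0528% lower. At an unadjusted p under 0.05 the test gave 2 genes, Phlda3 and Bbc3, and the share of all genes under that p was not counted. DESeq2 called 1 of the 10, Phlda3, and 248 of all 38149 genes fitted. Phlda3 stood at 4.64 and 4.94 TPM in WT and 12.7 and 13.9 TPM in KO (1.87 ± 0.56, adjusted p = 0.673 in edgeR, and 1.89, adjusted p = 0.0203 in DESeq2). Bbc3 stood at 29.9 and 27.3 TPM in WT and 49.4 and 37.6 TPM in KO (0.68 ± 0.29, adjusted p = 0.876). Bax stood at 140.3 and 207.2 TPM in WT and 254.1 and 216.1 TPM in KO (0.61 ± 0.33, adjusted p = 0.876). These 3 genes had both KO libraries above both WT libraries, and the share of all genes that did so was not counted. Mdm2 was at 59.2 and 65.9 TPM in WT and 50.7 and 47.0 TPM in KO, but its counts overlapped (-0.05 ± 0.27, adjusted p = 0.969). Eda2r was at 1.93 and 1.85 TPM in WT and split between the KO libraries, at 1.63 and 0.457 TPM (-0.87 ± 1.06, adjusted p = 0.883). Sesn2 was at 21.0 and 21.1 TPM in WT and 16.7 and 13.8 TPM in KO (-0.24 ± 0.28, adjusted p = 0.883), and was lower in KO without overlap by count as well. Trp53inp1 was at 14.7 and 14.1 TPM in WT and 7.26 and 9.97 TPM in KO (-0.22 ± 0.31, adjusted p = 0.893). Zmat3 was at 2.38 and 1.29 TPM in WT and 1.28 and 1.08 TPM in KO (-0.29 ± 0.61, adjusted p = 0.923). By TPM, both KO libraries thus lay below both WT libraries for Mdm2, Eda2r, Sesn2, Trp53inp1, and Zmat3. By count only Sesn2 did so, while Mdm2, Eda2r, Trp53inp1, and Zmat3 overlapped. How many of all genes lay below by TPM was not counted. Cdkn1a stood at 5.15 and 7.56 TPM in WT and 15.5 and 16.9 TPM in KO (1.91 ± 0.56, adjusted p = 0.644, and 0.026 in DESeq2). Leaving out a library leaves 1 in its genotype, so calls from such fits are not given. Over 10 alternative settings the log2 fold change ran from 1.31 to 2.03 for Phlda3 and 0.27 to 1.07 for Bax. It ran from 0.06 to 0.77 for Ccng1, -0.04 to 0.61 for Trp53, -0.45 to -0.11 for Sesn2, and -1.89 to -0.25 for Eda2r. The standard errors of the 10 genes ran from 0.27 to 1.06 on the log2 scale, beside 0.04 to 0.23 in MEP. The median log2 fold change was 0.10 for the 10 genes and -0.16 for all genes tested, so that a value of 0 lies above the median gene. Stem cell markers summed to 961.5 to 1273 TPM in WT and 701.1 to 839.1 TPM in KO, and none of that list was called by edgeR.

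Whether the genotype effects themselves differed was tested on all 18 precursor libraries together, blocking on the mouse that gave them. Between MEP and GMP the effect differed for 7 of the 10 genes (26.8% of all genes), and for 6 of them it was higher in MEP. Eda2r differed by 3.73 ± 0.45 (adjusted p = 6.03e-05), Phlda3 by 2.49 ± 0.32 (adjusted p = 1.08e-04), and Trp53inp1 by 1.85 ± 0.16 (adjusted p = 4.66e-06) on the log2 scale. Smaller differences were found for Zmat3 (0.86 ± 0.14), Bbc3 (0.79 ± 0.18), and Ccng1 (0.68 ± 0.08), and Sesn2 was lower in MEP (-0.37 ± 0.14, adjusted p = 0.0865). The Sesn2 call was lost in 8 of 10 alternatives, each left-out mouse among them, with an adjusted p of up to 0.246. Between MEP and CMP the effect differed for 5 genes (13.1% of all genes). Eda2r (1.58 ± 0.33), Trp53inp1 (1.44 ± 0.16), Bbc3 (0.74 ± 0.17), and Ccng1 (0.52 ± 0.08) were higher in MEP and Sesn2 (-0.86 ± 0.14) was lower. Phlda3 (0.64 ± 0.23, adjusted p = 0.107) and Zmat3 (0.22 ± 0.13, adjusted p = 0.373) did not pass there. Between GMP and CMP 5 genes differed (21.0% of all genes), all with the lower effect in GMP: Eda2r (-2.15 ± 0.46), Phlda3 (-1.85 ± 0.33), Zmat3 (-0.64 ± 0.14), Sesn2 (-0.49 ± 0.14), and Trp53inp1 (-0.41 ± 0.16). There Trp53inp1 lost its call in 8 of 10 alternatives (adjusted p up to 0.305) and Sesn2 in 5 of 10 (up to 0.165). Trp53, Mdm2, and Bax passed in none of the 3 pairs, with the smallest adjusted p at 0.153 for Bax between MEP and GMP.

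**Figure D3:**
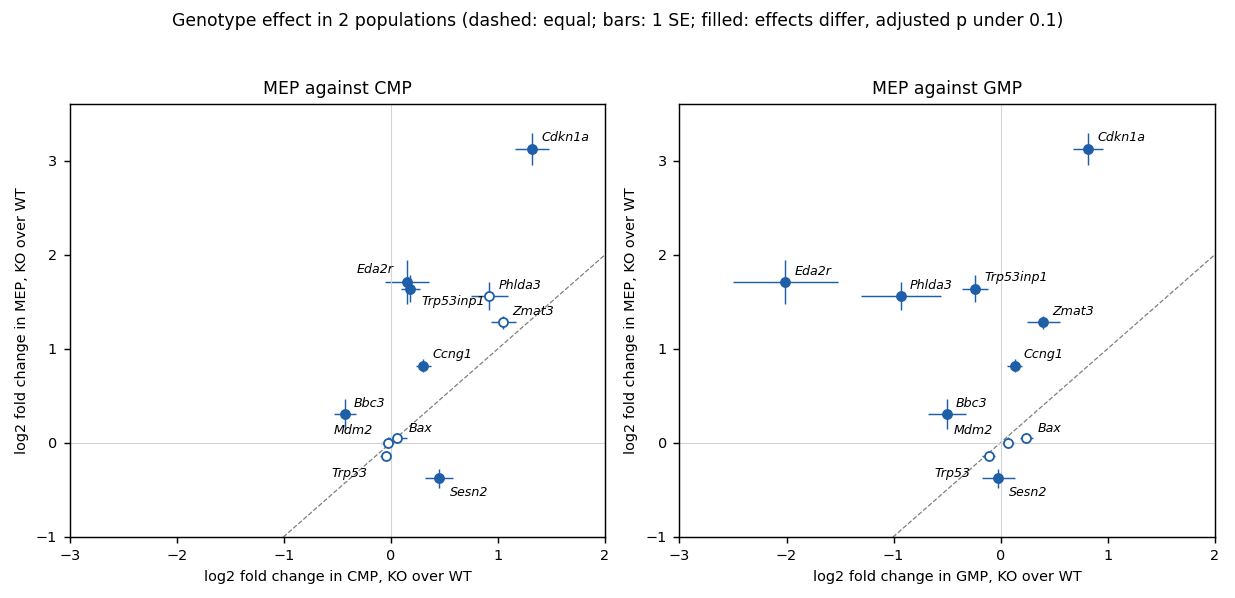
Log2 fold change of KO over WT in MEP (vertical) against CMP (left) and GMP (right) for the 10 genes and Cdkn1a; bars are 1 standard error, the dashed line marks equal effects, and filled points had effects that differed at an adjusted p under 0.1. Against GMP, Eda2r, Phlda3, and Trp53inp1 lie the farthest from the line among the 10 genes.

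A list of 42 further p53 targets moved in both directions. Of 40 tested in CMP 8 rose and 9 fell, of 36 in GMP 9 rose and 8 fell, and of 36 in MEP 11 rose and 7 fell, where 23.4%, 33.9%, and 29.4% of all genes were called. The split turned in limma on log2(TPM + 1), with 11 higher and 6 lower in CMP and 6 higher and 9 lower in GMP, and was 10 higher and 5 lower in MEP. Their median log2 fold changes were -0.09, 0.02, and 0.13, beside medians within 0.01 of 0 over all genes. Cdkn1a had the largest rise in MEP. Pmaip1, the BH3-only protein NOXA, rose by 2.37 ± 0.29 in CMP and 2.29 ± 0.16 in GMP, from 1.62 and 1.81 TPM in WT to 9 and 7.93 TPM in KO. It was not among the targets tested in MEP. Btg2, an antiproliferative gene, rose in MEP by 1.35 ± 0.29 and fell in CMP (-0.40 ± 0.10) and GMP (-0.75 ± 0.12). Perp, a membrane protein of desmosomes, fell in CMP (-0.99 ± 0.18), GMP (-1.14 ± 0.17, from 3.73 to 1.52 TPM), and MEP (-1.30 ± 0.45). Ak1, an adenylate kinase, fell in every precursor population, with a log2 fold change of -1.88 ± 0.19 in CMP, of -3.10 ± 0.38 in GMP, and of -2.39 ± 0.26 in MEP. In LT-HSCs edgeR called none of the 42, and 7 had an unadjusted p under 0.05, a share not counted over all genes. DESeq2 called 2 of them, and 248 of all 38149 genes fitted.

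**Figure D4:**
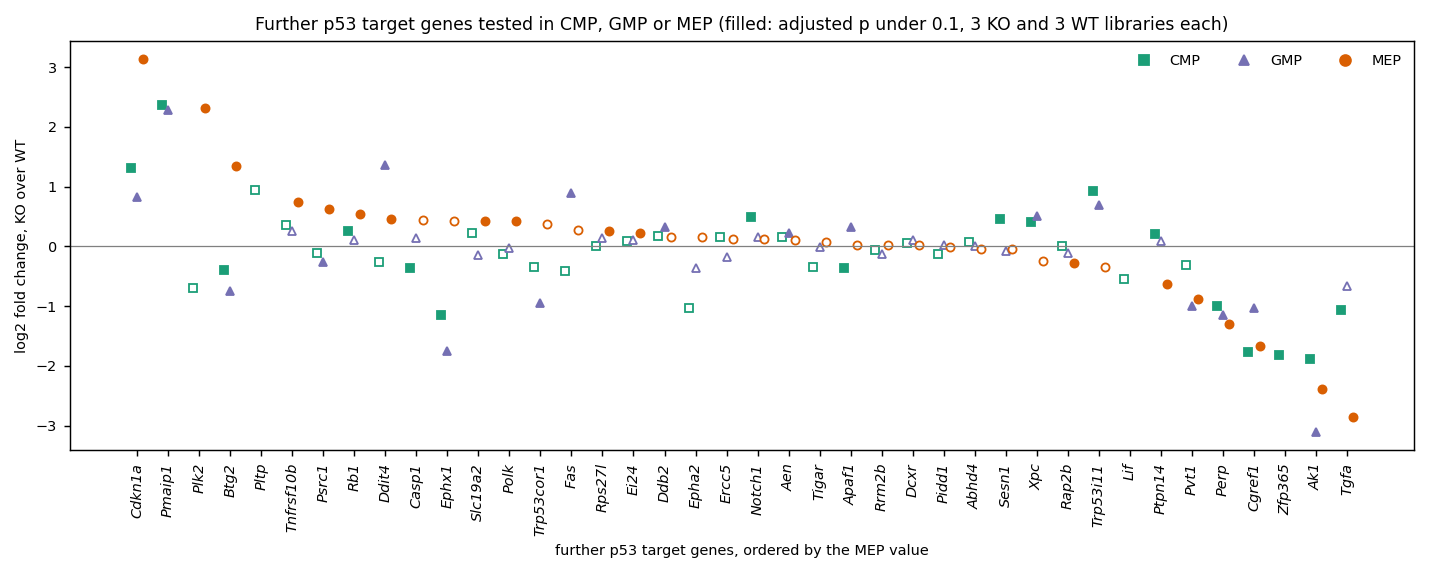
Log2 fold change of KO over WT for the further p53 targets tested in CMP (squares), GMP (triangles), or MEP (circles), ordered by the MEP value, with filled symbols at an adjusted p under 0.1. Cdkn1a stands at 3.13 in MEP and Ak1 and Tgfa lie at the lower end.

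Among 27 genes that control p53, 24 were tested in each precursor population, and 1 rose and 1 fell in CMP and in GMP. In MEP 8 rose and 1 fell. Those with the largest rise were Hipk2, a kinase of p53 (0.52 ± 0.09), Ppm1d, a phosphatase that p53 itself induces (0.40 ± 0.08), and Atm, the kinase of double-strand breaks (0.39 ± 0.05). Daxx, a partner of Mdm2, rose by 0.35 ± 0.07 in CMP and 0.28 ± 0.07 in GMP. By TPM it changed little in GMP, at 42.1 ± 1.05 (SD) in WT and 43.5 ± 3.79 in KO. Of 20 DNA repair genes 2 rose and 3 fell in CMP, 4 rose and 3 fell in GMP, and 1 rose and 5 fell in MEP. For the repair genes and the p53 regulators, these counts stood beside 23.4% (CMP), 33.9% (GMP), and 29.4% (MEP) of all genes called. Those of the repair genes were near that share, and those of the regulators in CMP and GMP were below it. H2afx, the histone that is phosphorylated at breaks, fell by 0.37 ± 0.05 in CMP and 0.40 ± 0.06 in GMP. Fancd2 of the Fanconi pathway rose by 0.28 ± 0.06 in CMP, 0.33 ± 0.07 in GMP, and 0.19 ± 0.07 in MEP.

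Other members of the BCL2 family moved in both directions. Bcl2l1, which encodes the survival protein BCL-XL, rose in MEP by 1.33 ± 0.15, from 6.52 to 16.4 TPM, and in GMP by 0.87 ± 0.09. Bcl2l11 (BIM), which promotes apoptosis, rose in MEP by 0.72 ± 0.07, while Bid and Bak1 fell there by 0.59 ± 0.05 and 0.48 ± 0.10. Over the family, 3 rose and 4 fell of 12 tested in CMP, 5 rose and 1 fell of 12 in GMP, and 3 rose and 3 fell of 10 in MEP. The counts of the BCL2, cell cycle, ATF4, and interferon lists stand beside 23.4% (CMP), 33.9% (GMP), and 29.4% (MEP) of all genes called. Of 20 cell cycle genes none was called in CMP by edgeR or DESeq2, with 1 at an unadjusted p under 0.05 and 1 called by limma on log2(TPM + 1). In GMP 12 rose and in MEP 8, beside the rise of Cdkn1a. In GMP limma on log2(TPM + 1) called 2 in place of 12, and the summed TPM overlapped, at 2797 to 2969 in WT and 2850 to 3100 in KO, while in MEP limma called 8. Mki67, a marker of cycling cells, rose in MEP by 0.63 ± 0.09, from 100.4 to 158.2 TPM. Sesn2 also belongs to the ATF4 list of amino acid stress genes, of which 3 rose and 2 fell of 13 tested in CMP, 6 rose and 3 fell in GMP, and 3 rose and 4 fell in MEP. Besides Sesn2, those that fell in MEP were Phgdh (-0.79 ± 0.09) and Asns (-0.41 ± 0.10), enzymes of serine and asparagine synthesis, and Aldh18a1, an enzyme of proline synthesis, which is named after its value was seen, to complete the 4. Interferon response genes rose in 15 of 18 tested in CMP, 7 of 17 in GMP, and 12 of 18 in MEP, with sums of 249.7 to 367.8 TPM in WT and 456.9 to 569.8 TPM in KO for CMP. In GMP the sums overlapped, at 197.3 to 237.5 TPM in WT and 216.3 to 247.1 TPM in KO, and limma on log2(TPM + 1) called 4 in place of 7. In MEP the sums were 178.7 to 312.0 TPM in WT and 344.9 to 458.2 TPM in KO. Their part in the results for p53 targets was not tested.

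Across the 18 precursor libraries, in which 3 populations and 6 mice recur, the 10 genes fell near different genes by Pearson's r of log2 CPM (counts scaled to library size). Phlda3, Eda2r, and Zmat3 were close to one another (r = 0.96 for Phlda3 with Eda2r, 0.97 for Phlda3 with Zmat3, and 0.93 for Eda2r with Zmat3). Over all 18523 genes, the nearest to Phlda3 were Vopp1, Usp49, and Ube2l6 (r = 0.99 each), and those to Ccng1 were Srxn1, Gas2l1, and Samd11 (0.98 each). Eda2r was nearest to Rab3il1 (0.98), Inka2 (0.97), and Limd1 (0.97), Zmat3 to Dnajb2, Slc26a1 (0.99 each), and Mpp2 (0.98), and Trp53inp1 to Ctsf (0.96), Zfand6 (0.95), and Med12l (0.94). Bax was nearest to Me2, Gpn3, and Emg1 (0.99 each), and Sesn2 to Slc37a3, Nags, and Unc5cl (0.98 each). Bbc3 was nearest to Camsap3, Hscb (0.97 each), and Pitpnc1 (0.96). Mdm2 had the loosest neighbours, Aldh8a1 (0.82), Platr7 (0.81), and Actn2 (0.79). These values describe profiles that mostly separate populations, with no test.

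The sums hold transcripts of several kinds. Protein-coding transcripts made 94.1% to 98.2% of Trp53 TPM and 44.3% to 70.6% of Mdm2 TPM, over all 22 libraries. Ccng1-201 carried at least 99.6% of Ccng1 in every library. In MEP the coding part of Eda2r was 0.257, 0.255, and 0.356 TPM in WT and 0.850, 0.948, and 0.896 TPM in KO, so that the coding transcripts alone also separated the genotypes. They made 36.5% to 69.6% of Eda2r in WT MEPs and 52% to 64.6% in KO MEPs, and the retained intron transcript Eda2r-203 made between 0% and 87.3% over all 22 libraries. Of Bbc3 3 of 4 and of Bax 1 of 6 annotated transcripts were in the quantified set, so the levels of these 2 genes may be incomplete. Bax shares 192 exonic bases with Gm45808, which lies on the same strand and has no value here.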

How the data were processed

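RNA-seq of 22 libraries was used, in the groups that the labels give. LT-HSC libraries were made with SMART-Seq v4 and precursor libraries with TruSeq, so LT-HSC levels were not tested against the others. The authors aligned paired reads of 100 bp to Ensembl 84 transcripts (GRCm38) with kallisto and deposited estimated counts, in which shared fragments are split between transcripts. The deposited TPM values are scaled for the effective transcript length, and the effective lengths that the authors deposited served as an offset in 1 alternative. The study tested with DESeq2.

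Values were summed per gene through GENCODE vM21, which held 114200 of 115088 transcripts, and counts were rounded. Each population was fitted apart in edgeR 4.0.16 (R 4.3.3, TMM, filterByExpr, quasi-likelihood test, genotype as the only term, Benjamini-Hochberg, FDR 0.1). Standard errors were taken as |log2 fold change| / √F. Differences between populations came from 1 fit of 18 libraries with the mouse as a block. Depth on genes was 40804031 to 65930737 counts per library.

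The 10 genes and all lists were chosen with earlier results of these data known. Named besides the 10 genes were Arid1a, Cdkn1a, up to 3 genes with the largest rise and 3 with the largest fall of a list (all KO libraries beyond all WT libraries), and the 3 genes nearest to each by r. The genes nearest to Trp53 are not reported here. Alternatives were other size factors, no filter, a length offset, DESeq2 1.42.0, limma 3.58.1 on log2(TPM + 1), a block, and left-out mice. No mouse number recurs between genotypes. As pairing for the block, the WT and KO columns that neighbour each other in the study's tables were used. The deviations of such pairs correlated at 0.30 to 0.45 in CMP, 0.39 to 0.48 in GMP, and -0.03 to 0.44 in MEP. Mice are taken as separate samples, as the labels number them.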

Additional observations from a re-analysis of the deposited data

Results flagged for a closer look

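The genotype effect on several genes differed between precursor populations, by the interaction term of an edgeR fit that blocked on the mouse (adjusted over 18523 genes), and each value is a difference of log2 fold changes ± SE. For GMP less CMP it was -1.85 ± 0.33 for Phlda3 (adjusted p = 0.00165), -2.15 ± 0.46 for Eda2r (adjusted p = 0.00555), -0.41 ± 0.16 for Trp53inp1 (adjusted p = 0.0968), -0.64 ± 0.14 for Zmat3 (adjusted p = 0.0056), and -0.49 ± 0.14 for Sesn2 (adjusted p = 0.0333). The Trp53inp1 call was lost in 8 of 10 alternatives and that of Sesn2 in 5 of 10.

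For MEP less CMP it was 0.52 ± 0.08 for Ccng1 (adjusted p = 9.76e-04), 1.58 ± 0.33 for Eda2r (adjusted p = 0.00813), 0.74 ± 0.17 for Bbc3 (adjusted p = 0.0153), 1.44 ± 0.16 for Trp53inp1 (adjusted p = 9.78e-05), -0.86 ± 0.14 for Sesn2 (adjusted p = 0.00138), and 1.84 ± 0.21 for Cdkn1a (adjusted p = 1.30e-04).

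For MEP less GMP it was 0.68 ± 0.08 for Ccng1 (adjusted p = 4.64e-05), 2.49 ± 0.32 for Phlda3 (adjusted p = 1.08e-04), 3.73 ± 0.45 for Eda2r (adjusted p = 6.03e-05), 0.79 ± 0.18 for Bbc3 (adjusted p = 0.00697), 1.85 ± 0.16 for Trp53inp1 (adjusted p = 4.66e-06), 0.86 ± 0.14 for Zmat3 (adjusted p = 5.04e-04), -0.37 ± 0.14 for Sesn2 (adjusted p = 0.0865), and 2.33 ± 0.21 for Cdkn1a (adjusted p = 6.31e-06). Sesn2 and Cdkn1a thus moved apart in MEP, where the first fell and the second rose in KO cells. The Sesn2 call for MEP less GMP was lost in 8 of 10 alternatives. All 3 contrasts share libraries, so their values are not independent of one another.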

How the results depend on the processing

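The 5 rises in MEP and those of Zmat3, Phlda3, and Ccng1 in CMP were called under all 14 alternatives, as was the decrease of Eda2r in GMP. In GMP the count of the 10 genes called fell from 4 to 2 with no filter on low counts and ran from 2 to 6 with single mice left out (2 without WT mouse 300 or 309 or KO mouse 304 or 308, and 6 without WT mouse 305). In LT-HSCs DESeq2 called 1 of the 10 genes and 2 further targets in place of 0, when it called 248 of all genes. With single LT-HSC libraries left out the counts of calls changed, most without the second WT library. Those fits leave 1 library in a genotype, and the calls over all genes changed with them, so their counts are not given. With no replicate block, 3 genes in place of 5 had effects that differed between CMP and GMP, and with single mice left out 3 to 5 did (3 without mouse 300, 301, or 309). The block for neighbouring columns gave 6, 6, and 7 genes in CMP, GMP, and MEP in place of 5, 4, and 7. Small effects that were not called changed sign in places, for causes that were not tested. With single libraries left out, the LT-HSC values ran from -0.04 to 0.61 for Trp53, -0.17 to 0.06 for Mdm2 (0.04 without the first KO library), -0.56 to 0.10 for Trp53inp1, and -0.59 to 0.07 for Zmat3. With single mice left out, they ran from -0.07 to 0.01 for Mdm2 and -0.01 to 0.15 for Bax in CMP, -0.16 to 0.09 for Sesn2 in GMP, and -0.03 to 0.03 for Mdm2 in MEP (-0.02 without 308). Without mice 304 and 305 together, Mdm2 in CMP was 0.01 and Sesn2 in GMP 0.10. On log2(TPM + 1), Trp53 and Mdm2 in CMP were 0.05 each, and Mdm2 and Ccng1 in GMP were -0.10 and -0.02. Among differences between populations with single mice left out, GMP less CMP ran from -0.18 to 0.05 for Bbc3 (0.02 without 309), MEP less CMP from -0.12 to 0.07 for Bax (0.01 without 304 and 0.000 without 309), WT GMP less WT CMP from -0.12 to 0.09 for Bax, and WT MEP less WT CMP from -0.06 to 0.32 for Eda2r. Depth limits Eda2r and Phlda3 in GMP, which rest on 2 to 46 counts per library.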
